A study of Stylophora pistillata with 6 samples.

Results

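The 200 mRNA models described here are predicted coding transcripts of the reef coral *Stylophora pistillata* that were much lower after long darkness than under a light cycle, yet had reads in every library. They were chosen by their measured values. A model had to have at least 10 estimated reads in all 6 libraries and to lie outside the 200 most abundant mRNA models, which left 18775 of 33152 mRNA models and of 36031 transcript models in all. These were ranked by the lowest control level divided by the highest darkness level, and the first 200 were kept. That the groups differ in these models is therefore set by the choice, and all differences between darkness and control in them are given as descriptions.

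*S. pistillata* is a branching coral whose gastrodermal cells house dinoflagellate algae. The algae photosynthesise and pass fixed carbon to the host, and light also sets daily rhythms and speeds the building of the skeleton in such corals. A coral kept without light loses that supply and lives from captured food, and a bleached coral is one that has lost algae or their pigment.

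RNA came from subapical branch tissue of nubbins, which are small fragments grown on from a coral. The darkness group was 3 nubbins kept without light for 24 h a day over 6 months, which looked bleached. The control group was 3 nubbins on 12 h of light and 12 h of dark, at an irradiance of 230 μmol photons per m² per s. All 6 were kept at 25 °C and fed rotifers and brine shrimp larvae. No label says whether the nubbins of a group came from separate colonies or tanks, so the spread between them may be smaller than that between corals.

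Libraries held 29123228 to 33307386 estimated reads in darkness and 17819870 to 20218247 in control. Depth and light therefore cannot be told apart by the design. Control replicate 2 was the lowest of the 3 controls for 47.8% of the 18775 models, against 27.1% for control replicate 1 and 25.1% for control replicate 3. Tissue and cell type markers were not analysed here, because the gene table used carries no product names. For the same reason no role is given to any gene below. A gene symbol could be paired with 148 of the 200 models (74.0%, against 62.3% of the 18775), and these belong to 146 genes. Every symbol is a locus number with no product attached. In bulk tissue, fewer cells of a type and less RNA per cell cannot be told apart.

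The lowered models spanned a wide range of levels. Levels are given as CPM, the estimated reads of a model per 1000000 estimated reads of its library; CPM is not divided by transcript length, so it ranks models by reads and not by molecules. The mean level of a model ran from 0.339 to 146.8 CPM in darkness, with a median of 2.39, and from 3.40 to 636 CPM in control, with a median of 29.8. Over all 18775 models the median was 16.0 CPM in darkness and 15.0 CPM in control. The median lowered model thus lay above the median of all models in control and below it in darkness. Together they took 0.188%, 0.201% and 0.198% of the reads of the darkness libraries and 1.38%, 1.49% and 1.60% of the reads of the control libraries.

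**Figure D1:**
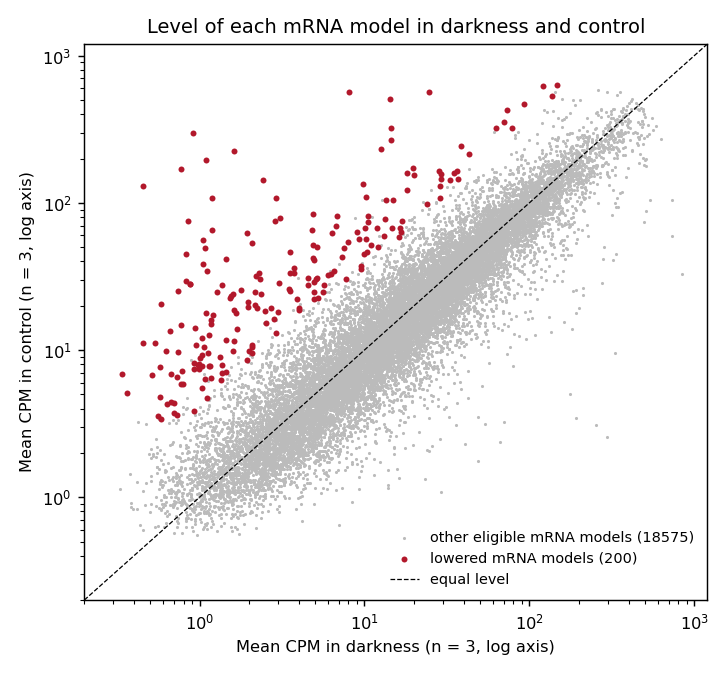
Mean CPM of each mRNA model in darkness (x axis, log) against its mean CPM in control (y axis, log), with 3 nubbins per group. Red points are the 200 lowered models, grey points the other 18575 eligible models, and the dashed line marks equal levels; the red points reach up to 636 CPM in control and lie above the line because they were chosen so.

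Grouped by their control level, 41 models averaged at least 100 CPM in control, 115 averaged between 10 and 100 CPM, and 44 averaged under 10 CPM. The 41 abundant models had a median of 19.9 CPM in darkness and 169 CPM in control. Only 10 of these 41 were under 10 CPM in darkness, and 6 were under 2 CPM, while 31 kept a darkness level between 10 and 146.8 CPM. The 115 middle models had a median of 3.04 CPM in darkness and 30.5 CPM in control, and the 44 scarce ones a median of 0.950 CPM in darkness and 7.07 CPM in control. Across the 200, 41 were under 1 CPM in darkness, 112 between 1 and 10 CPM and 47 at or above 10 CPM. A fall to a trace and a fall to a lower but still readily measured level therefore both occurred among the lowered models.

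The ratio that ranked the models fell steeply along the list. It was 215 for the first model and 3.13 for the last, with a median of 4.70, and it reached 100 in 4 models, 50 in 8, 20 in 18 and 10 in 39, while 108 were under 5. Just inside the limit, LOC111324250 had a ratio of 3.16 and LOC111329132 one of 3.13; just outside it, XM_022936060.1 and LOC111331801 had ratios of 3.13 and 3.12. These pairs differ by little, so the last places on the list are arbitrary. For scale, the same rule turned round, for models higher in darkness, gave 200 models with ratios from 67.1 down to 2.67. Of those raised models 10 reached a ratio of 10, against 39 of the lowered ones. On CPM over library totals, 5440 models had every darkness library above every control, and 3815 (20.3% of the 18775) had every control above every darkness library. With libraries scaled by trimmed means (TMM), an alternative chosen after seeing the data, these counts were 4622 and 4594. More models were thus higher in darkness under both scalings, but the counts were nearly equal with TMM. A ratio of 10 was then reached by 41 lowered and 9 raised models.

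**Figure D2:**
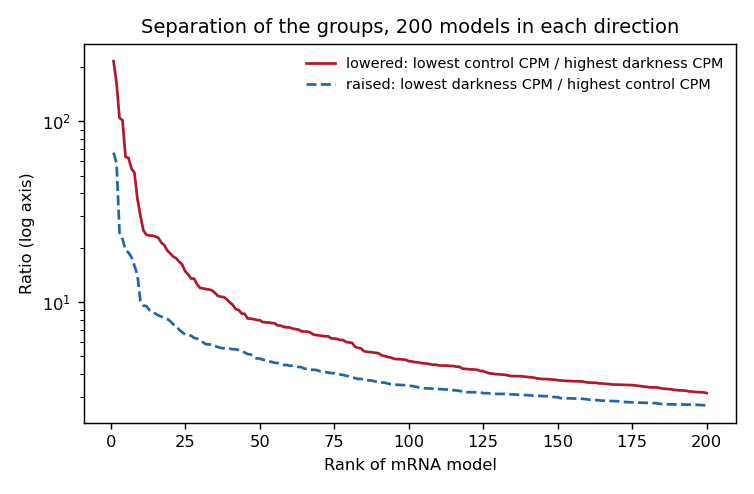
Ratio of each model (y axis, log) against its rank (x axis) for the 200 lowered models (red, lowest control CPM over highest darkness CPM) and the 200 models raised by the mirrored rule (blue dashes, lowest darkness CPM over highest control CPM). The lowered curve starts at 215 and ends at 3.13, and the raised curve starts at 67.1 and ends at 2.67.

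LOC111335117 stood first. Its levels were 0.628, 0.961 and 1.17 CPM in the darkness nubbins and 286, 251 and 359 CPM in the controls. Those darkness levels rest on 20, 32 and 34 estimated reads, against 4475 to 7262 in the controls. It was thus an abundant mRNA in all 3 lit nubbins and near the lower end of the measured range in all 3 dark ones. The fitted log2 fold change of darkness over control was −8.43 (SE 0.26). Fitted changes here come from an edgeR model that scales libraries by trimmed means, and, like the ratio, they describe what the models were chosen for.

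A small set beside it shared this near loss from a high level. LOC111336145 had 1.04, 1.44 and 0.790 CPM in darkness and 150.3, 245 and 194 CPM in control. LOC111345979 had 0.534, 0.333 and 1.46 CPM in darkness and 148, 193 and 166 CPM in control, with darkness replicate 3 the highest dark nubbin. Darkness levels near or under 1 CPM, as in all models of this set, rest on few estimated reads. Differences among their dark nubbins are therefore uncertain. LOC111329237, through its model XM_022933872.1, had 1.45, 1.07 and 1.07 CPM in darkness and 91.3, 113 and 119.9 CPM in control. LOC111333578 was steadier within groups, with 0.754, 0.781 and 1.03 CPM in darkness and 75.4, 65.5 and 83.1 CPM in control. Their fitted log2 fold changes were −7.58 (SE 0.36), −7.89 (SE 0.58), −6.58 (SE 0.21) and −6.53 (SE 0.17), given in the order of the genes above. The model with the next highest ratio after LOC111335117 carries no gene symbol: XM_022929411.1 had 0.377, 0.300 and 0.687 CPM in darkness and 120.0, 112 and 159 CPM in control.

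LOC111335825 fell as far but varied among the controls. It had 1.26, 1.44 and 2.16 CPM in darkness and 324, 112 and 237 CPM in control, with control replicate 2 the lowest. LOC111328662 showed the opposite order, with 0.943, 1.02 and 1.20 CPM in darkness and 27.7, 91.5 and 49.8 CPM in control, where control replicate 2 was highest. The dark nubbins differed by less than the controls in both. Among the other models of highest ratio, control replicate 2 was lowest for LOC111331635, LOC111336895, LOC111328694, LOC111321422, LOC111326103 and LOC111321006. LOC111321422, for example, had 2.07, 3.48 and 3.23 CPM in darkness and 140.3, 81.2 and 100 CPM in control. LOC111321006 had the smallest standard error of this set, with 2.80, 2.94 and 3.45 CPM in darkness, 86.2, 66.7 and 83.8 CPM in control, and a log2 fold change of −4.77 (SE 0.14). In LOC111331635, LOC111328694 and LOC111326103 the mean was 1.07 ± 0.216, 0.832 ± 0.430 and 0.830 ± 0.244 CPM in darkness and 49.5 ± 14.1, 44.6 ± 12.7 and 29.2 ± 7.46 CPM in control (SD, n = 3 each).

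**Figure D3:**
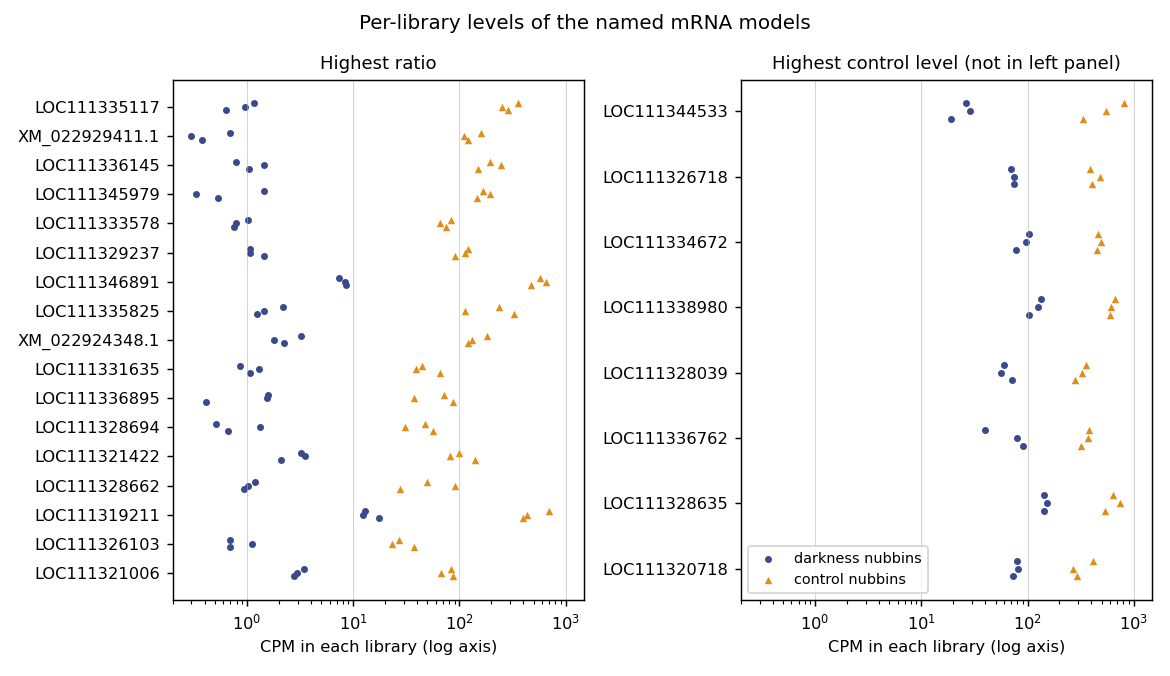
CPM in each library (x axis, log) for named models, 1 row per model. Those of highest ratio are at left, and those of highest control level not already shown are at right. Blue dots are the 3 darkness nubbins and orange triangles the 3 controls. In every row the darkness dots lie left of the control triangles, by a ratio of 215 for LOC111335117 at the top left and of 3.29 for LOC111320718 at the bottom right.

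The models with the most reads in control mostly kept a clear level in darkness. LOC111328635 was the highest of all in control, with 143, 154 and 143 CPM in darkness and 538, 739 and 631 CPM in control. LOC111338980 had 103, 126 and 134 CPM in darkness and 595, 613 and 659 CPM in control. LOC111334672 had 78.0, 97.3 and 102 CPM in darkness and 455, 489 and 459 CPM in control. These 3 fell by 2.21, 2.46 and 2.44 on the log2 scale (SE 0.15, 0.11 and 0.12) and stayed readily measured in the dark nubbins. LOC111326718 had 74.6, 75.1 and 69.9 CPM in darkness and 405, 486 and 390.4 CPM in control, and LOC111328039 had 72.1, 56.3 and 60.6 CPM in darkness and 279, 328 and 353 CPM in control. LOC111320718 was close to both, with a mean of 78.0 ± 3.79 CPM in darkness and 323 ± 78.4 CPM in control (SD, n = 3 each).

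A few of these models went further down. LOC111346891 had 8.55, 8.44 and 7.31 CPM in darkness and 468, 648 and 579 CPM in control, a log2 fold change of −6.22 (SE 0.20). LOC111319211 had 17.3, 12.2 and 13.0 CPM in darkness and 394, 434 and 701 CPM in control. LOC111344533 had 18.9, 28.5 and 26.6 CPM in darkness and 335, 546 and 815 CPM in control. The last 2 were highest in control replicate 3, whereas LOC111346891 was highest in control replicate 2. Among the 10 models with a symbol of highest control level, LOC111336762 was the least even in darkness. It had 90.3, 80.3 and 39.4 CPM there and 316, 368 and 380.2 CPM in control. The 10 models of highest control level among all 200, with or without a symbol, are not the same set. They took 34.3% to 37.0% of the reads of all 200 in the darkness libraries and 31.4% to 35.0% in the control libraries.

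At the median, the libraries within a group differed by less than the ratio between the groups, 4.70. The choice by the lowest control and the highest darkness library favours this. It did not hold for every model: the widest spread was 6.19 times in darkness and 6.96 times in control, and 108 models had a ratio under 5. In darkness the highest library exceeded the lowest by a median of 1.48 times, against 1.23 times over all 18775 models, and in control by 1.45 times, against 1.41 times. At least a 2-fold difference among the dark nubbins was seen in 43 models (21.5%, against 8.91% of the 18775) and among the controls in 31 (15.5%, against 20.6%). Low read numbers go with the wider darkness spread: 34 of the 43 had under 50 estimated reads in a darkness library. The part of counting error in that spread was not tested. The lowest darkness library held a median of 54.0 estimated reads over the 200 models, with under 20 in 35 models and at least 100 in 79. A count of 10 reads has an exact Poisson 95% interval of 4.80 to 18.4, for counting error only.

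**Figure D4:**
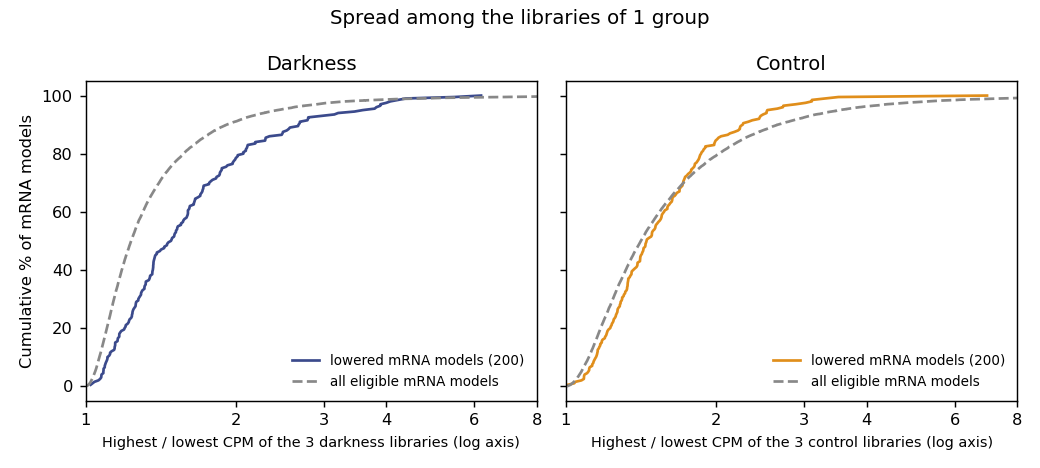
Cumulative percentage of mRNA models (y axis) whose highest library exceeds the lowest by no more than the ratio on the x axis (log), among the 3 darkness libraries (left) and the 3 control libraries (right); solid lines are the 200 lowered models and dashed lines all eligible models. At a ratio of 2 the lowered models lie below all models in darkness, with 21.5% against 8.91% beyond it, and above them in control, with 15.5% against 20.6% beyond it.

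The 9 remaining models with such a spread in darkness had at least 50 reads in every library. LOC111333886, through XM_022939525.1, was one of them, with 3.51, 19.2 and 14.8 CPM in darkness and 218, 205 and 277 CPM in control. LOC111331800 had 3.38, 2.18 and 9.20 CPM in darkness and 45.4, 42.8 and 33.7 CPM in control. LOC111320021 had 3.00, 9.20 and 10.4 CPM in darkness and 41.7, 50.2 and 56.4 CPM in control. No one dark nubbin was the outlying one in these 3, since replicate 1 was low in LOC111333886 and LOC111320021 and replicate 3 was high in LOC111331800. These 3 are named as examples picked with their values known. The least even of all in darkness was LOC111337951, with 4.96, 0.801 and 2.90 CPM, against 51.3, 121 and 53.8 CPM in control, and its darkness replicate 2 rested on 26.7 estimated reads.

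Among the controls, no library was high or low throughout. Control replicates 1, 2 and 3 were highest for 42, 78 and 80 models and lowest for 85, 78 and 37. Over all 18775 models replicate 2 was highest for 27.5%, but for the lowered models for 39.0%. Control replicate 1 was lowest for 42.5% of the lowered models, against 27.1% of the 18775. Among the dark nubbins, replicates 1, 2 and 3 were highest for 40, 74 and 86 models. Ranking by the lowest control and the highest darkness library enters all these counts.

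The edgeR model, which tests each transcript across all 6 libraries, called all 200 models lower in darkness (adjusted p under 0.05). Over all 26906 tested transcripts it called 10.5% lower and 8.08% higher. Of its 4985 calls 2812 were lower, against 2363 of 4887 with library totals in place of TMM, so the side with more calls changed with the scaling. Over the 18775 models that could have been chosen it called 12.4% lower. The rule used the same contrast, so nothing is read from the 200. The median fitted log2 fold change was −3.04, ranging from −1.96 to −8.43, against 0.05 over all tested transcripts. When 1 library was left out, 182 to 198 of the 200 stayed called, and 176 were called in every such fit. Over all transcripts the count called lower was then 1372 to 2452, against 2812 with all libraries. The rule favours models that stay called, so nothing is read from their number. The 24 that lost the call in at least 1 fit included LOC111324250 and LOC111329132 at the end of the list. In all 200 models the highest adjusted p of these fits came with a darkness library left out.

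The estimates divide reads between similar transcripts, so they are whole numbers only where no division was needed. All 6 estimates were whole in 121 models (60.5%, against 58.6% of the 18775), with a median ratio of 4.93, against 4.45 in the other 79. Among the models at the head of the list, LOC111336145, LOC111333578, LOC111346891 and LOC111335825 had whole estimates throughout. LOC111335117, LOC111345979 and LOC111329237 did not, and for these a similar transcript may hold some of their reads.

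Most of the genes had no other transcript to compare. Of the 146 genes, 123 had a single transcript in the table. Only transcripts paired with a gene symbol are counted, 51.9% of all 36031, so further transcripts of a gene may have been missed. In LOC111336895 and LOC111329237 a pair of models was lowered. The pair of LOC111336895 had a mean of 1.19 ± 0.674 and 1.05 ± 0.367 CPM in darkness and 65.3 ± 25.3 and 38.2 ± 14.3 CPM in control (SD, n = 3 each), and both were lowest in control replicate 2. The other model of LOC111329237, XM_022933871.1, had 0.588, 1.31 and 1.64 CPM in darkness and 16.0, 6.46 and 22.7 CPM in control.

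The other 21 genes held 26 further transcripts that the rule did not take. Of these 14 were tested in the same fit, and 4 were lower in darkness (edgeR, adjusted p under 0.05; 5 at an unadjusted p under 0.05), beside 10.5% lower over all tested transcripts. None of the 14 was higher by edgeR, by DESeq2 or by limma-voom, and 0 were higher at an unadjusted p under 0.05 in edgeR. Over all tested transcripts edgeR called 8.08% higher. Among all transcripts, 4877 of 8995 calls were lower with DESeq2 and 2883 of 5167 with limma-voom. The 14 transcripts are too few to tell 0 from such shares, so nothing is read from it. Summed over all transcripts paired with a gene, every control stayed above every dark nubbin in all 21 genes. In 16 this was by at least the ratio of the last model on the list. These sums include the lowered models, which made up 60.5% to 100% of a gene's reads in control. The choice of the models therefore favours this outcome, and nothing is read from it.

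LOC111333886 showed the clearest unequal change. Its lowered model fell by 4.32 on the log2 scale (SE 0.64), while the sister transcript XM_022939533.1 had 77.4, 82.8 and 101 CPM in darkness and 161, 104 and 158 CPM in control, a log2 fold change of −0.78 (SE 0.17, adjusted p = 0.0324, edgeR). The lowered model made up 12.5% of the gene's reads in darkness and 62.4% in control. In LOC111346032 the lowered model XM_022953320.1 had 9.07, 10.3 and 12.3 CPM in darkness and 83.5, 76.1 and 84.6 CPM in control. A sister transcript, XM_022953318.1, had 0.774, 1.70 and 0.915 CPM in darkness and 8.47, 5.43 and 4.48 CPM in control (adjusted p = 0.0163, edgeR). The remaining one, XM_022953319.1, had 11.3, 9.24 and 7.08 CPM in darkness and 5.50, 21.4 and 30.6 CPM in control, with groups that overlap (adjusted p = 0.271, edgeR).

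LOC111321581 was the only gene here with a tested sister transcript at 0 in every dark nubbin. XM_022924504.1 had 0 CPM in each dark nubbin and 10.8, 8.86 and 9.92 CPM in control (adjusted p = 0.00172, edgeR). The lowered model of this gene, XM_022924503.1, had 2.84, 1.56 and 6.23 CPM in darkness and 25.0, 22.0 and 29.1 CPM in control. Its other tested sister, XM_022924505.1, had 2.34, 4.23 and 2.89 CPM in darkness and 1.75, 1.39 and 5.96 CPM in control. Those groups overlap (log2 fold change −0.01, adjusted p = 0.995, edgeR). In LOC111334672 the sister XM_022940482.1 had 7.12, 0 and 1.92 CPM in darkness and 82.7, 118 and 103 CPM in control, which did not pass the threshold (adjusted p = 0.0590, edgeR) although the groups did not overlap. The estimates of all these transcripts depend on how reads were divided, and whether sister transcripts of a gene differed in their change was not tested.

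**Figure D5:**
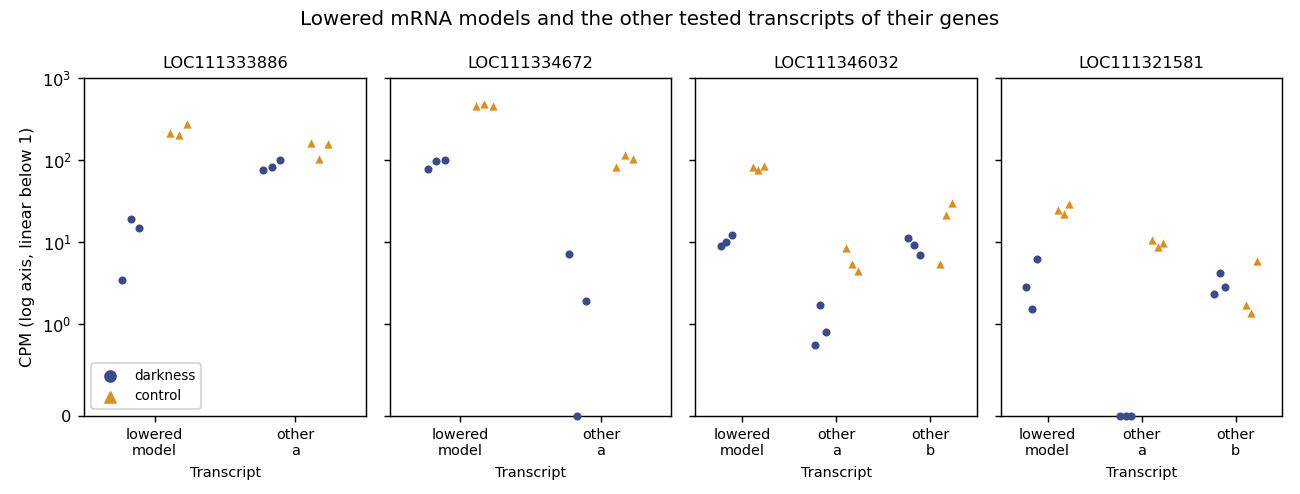
CPM in each library (y axis, log above 1 and linear below) of the lowered model and the other tested transcripts (a, b) of 4 genes; blue dots are the 3 darkness nubbins and orange triangles the 3 controls. In LOC111333886 transcript a stays at 77.4 to 101 CPM in darkness while the lowered model is at 3.51 to 19.2 CPM, and in LOC111321581 transcript a is at 0 in all 3 dark nubbins.

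The places of the 146 lowered genes along the chromosomes were taken from the assembly jaStyPist1.2. Counting protein-coding genes only, 2 pairs were immediate neighbours and 5 further pairs lay within 10 genes. How many such pairs an equal number of other genes would give was not counted, so nothing is read from these numbers. In the first pair, LOC111341040 had 19.0, 20.2 and 20.6 CPM in darkness and 151, 183 and 129 CPM in control. LOC111341043 beside it had 26.7, 37.1 and 35.4 CPM in darkness and 133, 126 and 168 CPM in control. The second pair joined LOC111329237, described above, to LOC111329191, which had 34.0, 38.3 and 38.4 CPM in darkness and 132, 176 and 126 CPM in control. Within each pair the fall was unequal, by 3.05 against 2.19 and by 6.58 against 2.07 on the log2 scale. The next nearest were LOC111321022 with LOC111321023 and LOC111328635 with LOC111328662, each with 1 gene between them.

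Neighbouring genes that were not themselves on the list moved in both directions. Of 286 such genes 182 had a tested transcript, and of these 33 were lower (18.1%) and 16 higher (8.79%) in darkness (edgeR, adjusted p under 0.05, the most abundant transcript of each gene). Over the 12754 genes in the order with a tested transcript, the shares were 14.6% lower and 8.99% higher. The median log2 fold change was −0.17 for the neighbours and −0.03 over these genes. The 12754 include the lowered genes themselves, which the neighbours do not. The share higher was thus close to that of all tested genes and the share lower somewhat above it, and the difference was not tested. Some lowered genes sat beside a raised one. LOC111329801 had 4.37, 5.94 and 4.40 CPM in darkness and 50.04, 43.0 and 62.5 CPM in control, while LOC111329800 next to it had 292, 268 and 274 CPM in darkness and 48.5, 39.1 and 37.2 CPM in control (log2 fold change 2.65, adjusted p = 0.000764, edgeR). LOC111329209, on the other side of LOC111329237, had 26.4, 24.7 and 21.4 CPM in darkness and 8.63, 8.14 and 6.03 CPM in control (log2 fold change 1.57, adjusted p = 0.00648, edgeR). Both examples were picked with their values known.

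The list leaves out models that fell as much but failed its other terms. Another 360 mRNA models had at least 10 reads in every control and a ratio at or above that of the last model, but fewer than 10 reads in some darkness library, 125 of them with 0 in all dark nubbins. Of the 200 most abundant mRNA models, which were set aside, 3 reached that ratio. The list also leaves out smaller falls: of the 18775 models that could have been chosen, 2323 were called lower (edgeR, adjusted p under 0.05). The 200 models are therefore the largest falls, by the ratio, among mRNAs that could still be measured in every dark nubbin and were not set aside.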

How the data were processed

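The authors deposited estimated counts per RefSeq transcript model, not scaled to depth. The submitters' processing notes name fastp, Salmon 0.11.4 and DESeq2, without order. Settings, strandedness and genome build: not given in the sources used here. Columns were matched to samples by description, with 0 left unused. The 200 models and all lists and examples were chosen with earlier results of these data known. CPM is the estimate over the library's total. For the model fit, estimates were rounded, filtered with filterByExpr, scaled by TMM and tested with edgeR 4.0.16 (quasi-likelihood F test, robust, group only, Benjamini-Hochberg over all transcripts) in R 4.3.3; SE is the log2 fold change over the root of F. The script was tested on simulated data. Symbols and gene order come from the RefSeq gene table of jaStyPist1.2, matched without version numbers. The rule for named models took, among those with a symbol, the 15 of highest ratio and the 10 of highest control level, plus 2 without a symbol and those at the limit; others are named as chosen later or as examples of a group. Alternatives were DESeq2 1.42.0, limma-voom (limma 3.58.1), other scalings and filters, altered rules, a replicate block and leaving out each library. Planned searches of protein patterns, protein families, promoter motifs and cell type markers were not run, as no sequences or product names were at hand. Intervals cover counting error only.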

Additional observations from a re-analysis of the deposited data

How the results depend on the processing

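The count of called transcripts (4985) was 8995 with DESeq2, 1386 with the replicate number as a block and 2121 to 4466 with 1 library left out; without control replicate 1 it was 3089 and without darkness replicates 1, 2 and 3 it was 2638, 2203 and 2121. The cause was not tested for DESeq2. The block result is given only here: no label pairs the nubbins, deviations of same-numbered libraries correlated at −0.0425, −0.0277 and 0.0308, and only the libraries numbered 3 correlated best with each other. The block left 163 of the 200 lowered models called, and limma-voom 198. Over all transcripts 901 were called lower with the block and 2883 with limma-voom, against 2812 in the main fit. The median log2 fold change of the 200 lowered models, −3.04, was −2.95 with library totals, which moved the median of all transcripts by 0.09. It was −2.56 for the 79 models with at least 100 reads in every darkness library, and whole-number models gave −3.12. The 4 lower sister transcripts became 2 with library totals, 7 with DESeq2, 1 to 4 with 1 library left out (2 without darkness replicate 1 and 1 without darkness replicate 3) and 0 in the edgeR fit with the block (5 at an unadjusted p under 0.05). Altered rules kept 165 to 197 of the 200 models, and 175 to 183 with 1 library left out. Restricting to whole-number estimates kept 119, of 121 that could be kept. Removing models leaves the order of the others largely as it was, so nothing is read from this. Thinning to one depth, added like the 2 restrictions after seeing the data, kept 167. Among 27 named models, 342 refits kept the call, 9 lost it and 0 turned direction. The rule put every control above every darkness library in these models, which favours this outcome, so nothing is read from it. Feature backgrounds and protein family thresholds were not run. Depth limits the 35 models with under 20 reads in a darkness library.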
